A study of Mus musculus with 2 samples.

Results

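The genes described here are 9 members of the complement system, 9 of the 32285 genes in the count tables, chosen by name: the C1q subunits C1qa, C1qb and C1qc, the central components C3 and C4b, the alternative-pathway genes Cfb and Cfp, and the anaphylatoxin receptors C3ar1 and C5ar1. All 9 were present in the tables of both libraries. Complement is a cascade of plasma and tissue proteins that marks microbes and dying cells for removal. C1q binds such surfaces and starts the classical pathway through C4 and C2, factor B and properdin drive the alternative pathway, and both routes meet at C3. Cleavage of C3 and C5 releases the small peptides C3a and C5a, which act on myeloid cells through C3ar1 and C5ar1, and C1q, unlike most complement proteins, is known to be made mainly by macrophages rather than the liver.

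Live CD45+ cells, that is immune cells, were sorted from mouse hearts aged 9 days, 7 days after myocardial infarction (MI) at postnatal day 2, a stage written P2MI7dpi. The WT group and the Lyve1 KO group, whose animals lack Lyve1 in every cell rather than in macrophages alone, each gave a single droplet library made from 5 pooled hearts, and all animals of both groups had undergone MI. The WT library held 4187 cells and the KO library 3391 cells after filtering, with medians of 11106 and 12856 unique molecular identifiers (UMIs) per cell. With 1 library per group no difference between WT and KO has a replicate check, no p value is given, and every interval below covers counting error only and not differences between animals.

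Levels are given as CPM, the UMIs of a gene per 1000000 UMIs after summing the cells of a class in 1 library, and the 9 genes were kept out of the features used for clustering, so that no class was drawn by them. The CCR2- macrophage-like class (1026 WT and 418 KO cells, 6 clusters) held 9866 CPM (WT) and 9622 CPM (KO) of summed CCR2- macrophage markers against 2009 and 2070 CPM of CCR2+ macrophage markers, with all 10 markers of each list detected. Clusters led by Spp1 and Gpnmb (187 WT and 189 KO cells) and by Saa3 and Prg4 (58 and 57 cells) were nearest to the CCR2+ and CCR2- macrophage lists, but Arg1 of the ILC2 list was among their leading genes, so they are called by their leading genes. Lyve1, the targeted gene, had 521 (WT) and 21.9 CPM (KO) in the CCR2- macrophage-like class, and 782 and 21.2 CPM in the Saa3 Prg4 cluster. The KO library held low Lyve1 levels in other classes too, for example 6 UMIs in WT and 134 in KO cells of the Spp1 Gpnmb cluster. The libraries shared 3 of the kept cell barcodes.

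The C1q genes lie side by side on chromosome 4 of GRCm38, all on the minus strand, in the order C1qb (chr4:136880129-136886187), C1qc (chr4:136889804-136893065) and C1qa (chr4:136895917-136898803), with gaps of 3616 and 2851 bases and a total span of 18675 bases. C3 lies at chr17:57203970-57228136. The sequences just before the starts of C1qb, C1qc and C3 are shown because the C1q genes followed each other across the classes while C3 did not. They are from RefSeq (GRCm38.p6), are printed 5′ to 3′ on the minus strand, and cover chr4:136886201-136886450, chr4:136893066-136893164 (only the bases outside the annotated gene) and chr17:57228137-57228386. RefSeq promoter entries matched 6 of the 9 genes, and C1qa, C4b and Cfb were not analysed here. Capitals mark matches on either strand to 3 motifs, chosen after the sequences were seen and not overlapping here: GAGGAA, the core bound by the myeloid factor PU.1, TGCTGA, a Maf half-site, and TTGCNNAA, a C/EBP form.
C1qb: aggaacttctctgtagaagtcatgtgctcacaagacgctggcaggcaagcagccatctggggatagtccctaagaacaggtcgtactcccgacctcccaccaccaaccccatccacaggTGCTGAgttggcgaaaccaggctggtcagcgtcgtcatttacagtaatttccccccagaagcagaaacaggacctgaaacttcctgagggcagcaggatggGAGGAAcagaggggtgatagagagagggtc
C1qc: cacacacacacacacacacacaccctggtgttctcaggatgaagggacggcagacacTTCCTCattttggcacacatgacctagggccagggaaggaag
C3: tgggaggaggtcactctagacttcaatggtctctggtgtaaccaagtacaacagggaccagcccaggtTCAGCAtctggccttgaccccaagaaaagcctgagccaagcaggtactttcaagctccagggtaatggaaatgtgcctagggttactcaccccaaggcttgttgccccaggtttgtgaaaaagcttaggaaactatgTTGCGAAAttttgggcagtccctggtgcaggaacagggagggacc
Among 27025 promoter windows of 250 bases, 23.1% held the PU.1 core, 15.8% the Maf half-site and 9.55% the C/EBP form, so that each is a common string. Cfp held none of them, and C3ar1 and C5ar1 held a Maf half-site each. C1qb held the PU.1 core 30 bases before the RefSeq start, C1qc held it in reverse (TTCCTC), and C3 held the C/EBP form 45 bases before it. A match describes the letters only.

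C1q, the recognition component of the classical pathway, lay almost wholly in macrophage populations. In CCR2- macrophage-like cells C1qa reached 4445 (WT) and 4269 CPM (KO), C1qb 4875 and 4635 CPM, and C1qc 4326 and 4214 CPM. Together the 3 genes made up 1.36% of all UMIs of that class in WT and 1.31% in KO. The Saa3 Prg4 cluster was similar in WT, with 12863 CPM for the summed subunits against 13646 CPM in the CCR2- macrophage-like class, and lower in KO, with 9356 against 13118 CPM. The Spp1 Gpnmb cluster held 6190 (WT) and 5061 CPM (KO). Of all C1q UMIs of a library, CCR2- macrophage-like cells held 82.4% in WT and 70.1% in KO, the Saa3 Prg4 cluster 8.65% and 14.1%, and the Spp1 Gpnmb cluster 6.92% and 13.9%. Fewer cells of a type and less RNA per cell cannot be told apart in such library shares.

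Monocytes and lymphocytes stood far below the macrophages. Summed C1q was 215 (WT) and 39.2 CPM (KO) in classical monocyte-like cells, 24.3 and 15.4 CPM in non-classical monocyte-like cells, and 9.53 and 6.53 CPM in neutrophil-like cells. In T cell-like cells, which should make no C1q, it was 11.9 CPM (WT) and 4.01 CPM (KO), and the source of those UMIs was not tested. Other lymphoid classes ranged from 2.24 CPM in KO ILC2-like to 27.9 CPM in WT thymocyte-like cells, and the neutrophil-like levels lay within that range. On the log2 scale with 10 CPM added, CCR2- macrophage-like cells exceeded the pooled monocyte-like classes by 6.41 (95% counting interval 6.34 to 6.49) in WT and by 8.38 (8.26 to 8.501) in KO. The monocyte side of that ratio rested on few cells: in classical monocyte-like cells the 5 cells richest in C1q held 85.5% of the C1q UMIs in WT and 72.02% in KO. Without those 5 cells in each library the levels were 31.9 and 11.2 CPM.

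**Figure D1:**
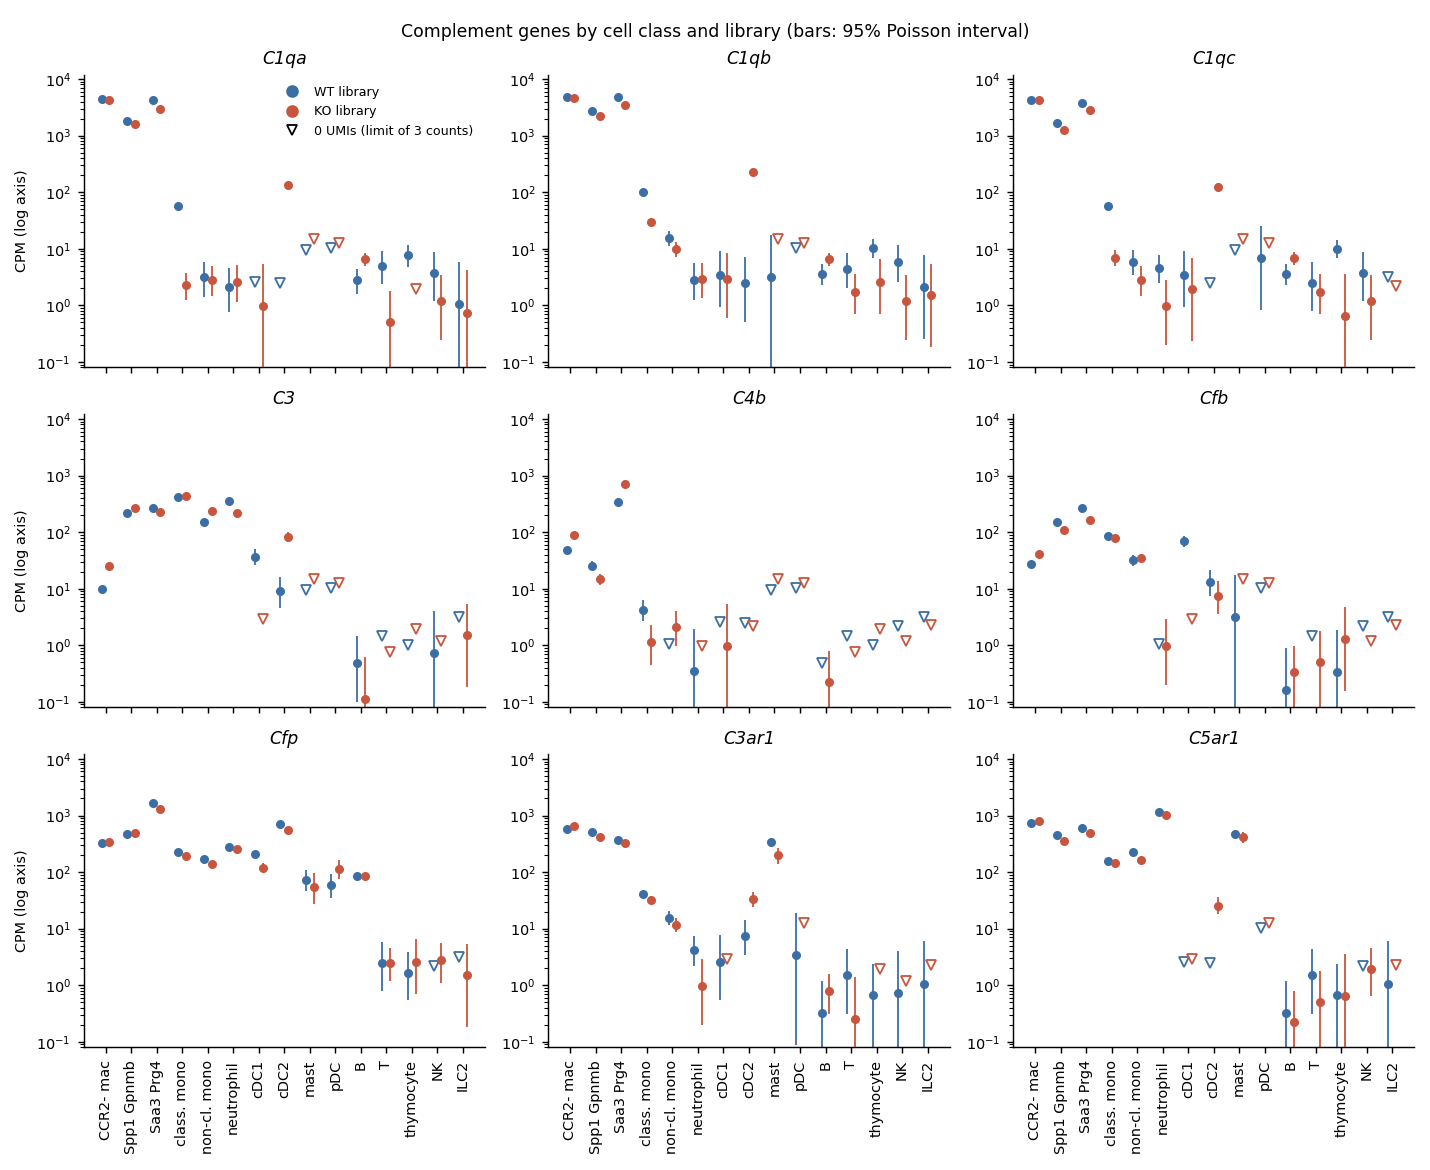
Level of each complement gene (CPM, log axis) in each cell class of the WT library (blue) and the KO library (red), with 95% Poisson intervals for counting error and open triangles at the limit that 3 counts set where no UMI was found. C1qa is at 4445 CPM (WT) and 4269 CPM (KO) in CCR2- macrophage-like cells, C3 is highest in classical monocyte-like cells, and C5ar1 is highest in neutrophil-like cells.

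In CCR2- macrophage-like cells, where C1q was high, nearly every cell held all of its subunits. After thinning every cell to 4200 UMIs, to set depth apart from expression, 99.7% of 1014 WT and 98.8% of 410 KO CCR2- macrophage-like cells held a UMI of each of the 3 genes (12 and 8 shallower cells were left out). In T cell-like cells, at the same depth, none of 147 WT and 280 KO cells held all 3, and 6.12% and 2.14% held a UMI of any of them. Where C1q was lower the subunits were seen together less: all 3 were in 56.1% of WT and 50.8% of KO cells of the Spp1 Gpnmb cluster, of which 74.6% and 65.2% held any, and in 6 of 238 WT and 0 of 243 KO classical monocyte-like cells, of which 22 and 13 held any. Before thinning the shares with any C1q UMI were 100% and 99.5% in CCR2- macrophage-like cells (median depths 23686.5 and 24807.5 UMIs), and 9.52% and 3.48% in T cell-like cells (7980.5 and 11828.5 UMIs).

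The Spp1 Gpnmb cluster was mixed. At 4200 UMIs per cell, 44 of 173 WT cells (25.4%) and 63 of 181 KO cells (34.8%) had no C1q UMI, while 70 WT cells (40.5%) and 63 KO cells (34.8%) had more than 20. By contrast 97.6% of WT and 95.6% of KO CCR2- macrophage-like cells had more than 20. Within the Spp1 Gpnmb cluster C3 was higher in the cells without C1q (271 CPM in WT, 385 CPM in KO) than in those with more than 20 C1q UMIs (122 and 163 CPM). The receptor C3ar1 showed the opposite order, with 406 and 219 CPM in cells without C1q and 605 and 673 CPM in cells with more than 20. Both libraries gave the same order of these end groups for both genes, and cells of 1 library are not replicates. For C3 the end groups held 50 and 36 UMIs in WT and 102 and 43 in KO. Between them C3 followed no steady order, with 168 (WT) and 149 CPM (KO) at 1 to 5 C1q UMIs and 193 and 360 CPM at 6 to 20.

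The part of C1q UMIs that came from C1qb differed between populations. It was 35.7% in WT and 35.3% in KO CCR2- macrophage-like cells, 36.7% and 37.4% in the Saa3 Prg4 cluster, and 44.0% and 43.6% in the Spp1 Gpnmb cluster, where the 95% binomial intervals of 43.4 to 44.5% and 43.0 to 44.1% lay apart from those of the CCR2- macrophage-like class. Classical monocyte-like cells had 47.2% (44.4 to 50.1%) in WT and 76.5% (70.7 to 81.7%) in KO. B and T cell-like cells together had 36.5% (26.3 to 47.6%) and 34.0% (27.4 to 41.2%), which overlapped the share in CCR2- macrophage-like cells. The KO monocyte value came from 243 C1q UMIs, 20.2% of them in 1 cell, and in WT 1 cell held 33.7% of 1209. For B and T cell-like cells together, 1 cell held 9.41% of 85 UMIs in WT and 55.2% of 194 in KO. The binomial intervals treat UMIs of the same cell as separate and do not cover differences between cells.

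**Figure D2:**
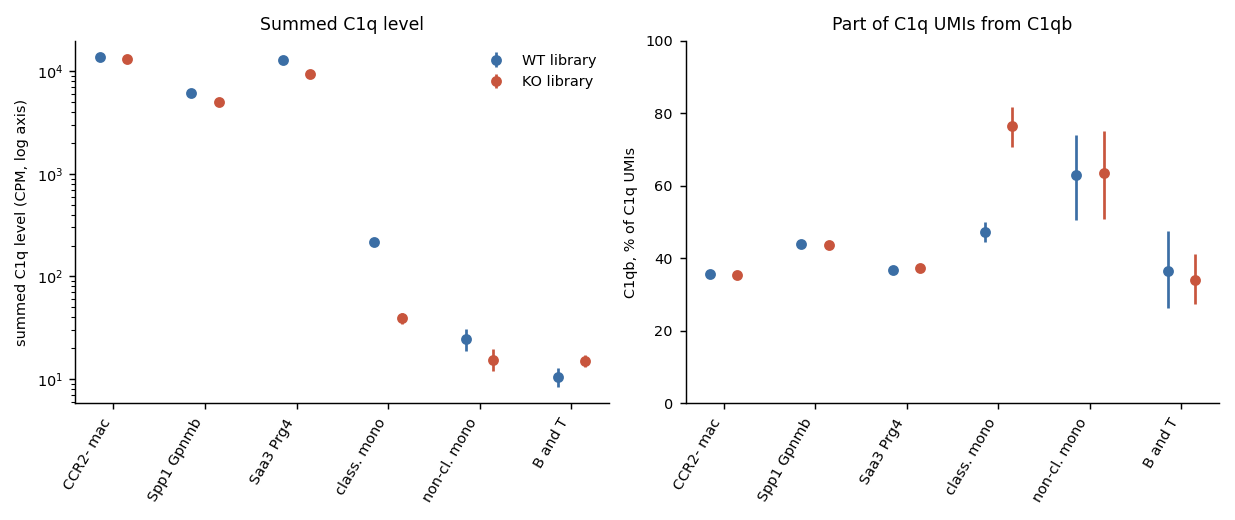
Left, summed level of C1qa, C1qb and C1qc (CPM, log axis), and right, percentage of those UMIs that came from C1qb, by class in the WT (blue) and KO (red) libraries, with 95% Poisson (left) and exact binomial (right) intervals. Of the classes plotted, the C1qb part is 35.7% (WT) and 35.3% (KO) in CCR2- macrophage-like cells, 44.0% and 43.6% in the Spp1 Gpnmb cluster, and 76.5% in KO classical monocyte-like cells.

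Among the 6 CCR2- macrophage-like clusters C1q varied by less than 2-fold within a library. Summed C1q ranged from 10665 CPM in the Hist1h2ae cluster, led by histone genes of dividing cells, to 16070 CPM in the Cd207 Clec4f cluster in WT, and from 9050 to 14500 CPM in the same 2 clusters in KO. C4b, C3 and Cfb varied far more, as described next.

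C3, the central component of the cascade, was spread over the myeloid cells otherwise than C1q. It was highest in classical monocyte-like cells (414 CPM in WT, 433 CPM in KO), followed in WT by neutrophil-like cells (351 CPM), the Saa3 Prg4 cluster (266 CPM), the Spp1 Gpnmb cluster (222 CPM) and non-classical monocyte-like cells (150 CPM). In KO the Spp1 Gpnmb cluster (269 CPM) came second, and non-classical monocyte-like cells (240 CPM), the Saa3 Prg4 cluster (225 CPM) and neutrophil-like cells (215 CPM) had overlapping intervals. CCR2- macrophage-like cells had 9.93 (WT) and 24.9 CPM (KO), from 251 and 278 UMIs. T cell-like cells held 0 UMIs in both libraries, which allows at most 1.49 (WT) and 0.752 CPM (KO). At 4200 UMIs, 74.4% of WT and 70.0% of KO classical monocyte-like cells held a C3 UMI, against 2.66% and 5.37% of CCR2- macrophage-like cells.

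C4b, which follows C1q in the classical pathway, was most abundant in the Saa3 Prg4 cluster, at 335 (WT) and 712 CPM (KO). Within CCR2- macrophage-like cells, which had 48.97 and 90.6 CPM, the Ccl8 Folr2 cluster held most of it, with 171 (WT) and 240 CPM (KO). Neutrophil-like, dendritic and lymphocyte classes held at most 2 UMIs each. C4b shares most of its sequence with C4a, so that reads may be split between them. C4a was listed at 15 UMIs in WT and 14 in KO over all kept cells, and the C4b values carry that uncertainty.

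Factor B, the protease of the alternative pathway encoded by Cfb, also peaked in the Saa3 Prg4 cluster (270 CPM in WT, 165 CPM in KO), followed by the Spp1 Gpnmb cluster (154 and 111 CPM) and classical monocyte-like cells (84.4 and 77.3 CPM). CCR2- macrophage-like cells had 27.0 and 40.7 CPM, again with the Ccl8 Folr2 cluster highest (71.7 and 86.4 CPM). Cfb lies 85 bases from C2 on the same strand, and reads that run through both could count for either.

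Properdin, encoded by Cfp on the X chromosome, stabilizes the alternative-pathway convertase and was the most widely spread component. It reached 1674 (WT) and 1304 CPM (KO) in the Saa3 Prg4 cluster, 702 and 556 CPM in cDC2-like cells, 472 and 496 CPM in the Spp1 Gpnmb cluster, 326 and 335 CPM in the CCR2- macrophage-like class and 277 and 252 CPM in neutrophil-like cells. B cell-like cells had 84.9 (WT) and 85.7 CPM (KO), above the 2.48 and 2.51 CPM of T cell-like cells. At 4200 UMIs, 18.1% of WT and 17.8% of KO B cell-like cells held a Cfp UMI, against 0% and 2.14% of T cell-like cells.

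The anaphylatoxin receptors divided the myeloid cells. C3ar1, the C3a receptor, was highest in CCR2- macrophage-like cells (582 CPM in WT, 660 CPM in KO), followed by the Spp1 Gpnmb cluster (506 and 418 CPM) and the Saa3 Prg4 cluster (374 and 329 CPM). Mast cell-like cells had 337 CPM in 29 WT cells and 198 CPM in 15 KO cells. The leading genes of that class included Cma1, Tpsb2 and Cpa3 of the mast cell list. Mcpt8, Cd200r3 and Gata2 of the basophil list were also among them, and basophils were not separated from mast cells. Neutrophil-like cells had 4.24 and 0.980 CPM, close to the 1.49 and 0.251 CPM of T cell-like cells, and monocyte-like classes lay between 11.6 and 40.2 CPM.

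C5ar1, the C5a receptor, was highest in neutrophil-like cells, at 1169 (WT) and 1004 CPM (KO). It was 730 and 785 CPM in the CCR2- macrophage-like class, 600 and 494 CPM in the Saa3 Prg4 cluster, 469 and 410 CPM in mast cell-like cells, 448 and 353 CPM in the Spp1 Gpnmb cluster, and 142 to 227 CPM in the monocyte-like classes. No C5ar1 UMI was found in cDC1-like cells of either library or in WT cDC2-like cells. Among CCR2- macrophage-like clusters it was highest in the Ccl8 Folr2 cluster (1031 CPM) in WT and in the Gdf15 cluster (1144 CPM) in KO.

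Counted per cell at 4200 UMIs, 72.6% of WT and 77.6% of KO CCR2- macrophage-like cells held UMIs of both receptors, and 3.25% and 2.20% held neither. Of the neutrophil-like cells 95.1% in WT and 94.2% in KO held C5ar1 alone, and 1 WT cell of 304 held both. Most classical monocyte-like cells held neither (56.7% and 57.6%), and 34.9% and 30.04% held C5ar1 alone. T cell-like cells gave the background of 0% for each receptor in both libraries at this depth, which with 147 and 280 cells allows up to 2.48% and 1.31%.

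**Figure D3:**
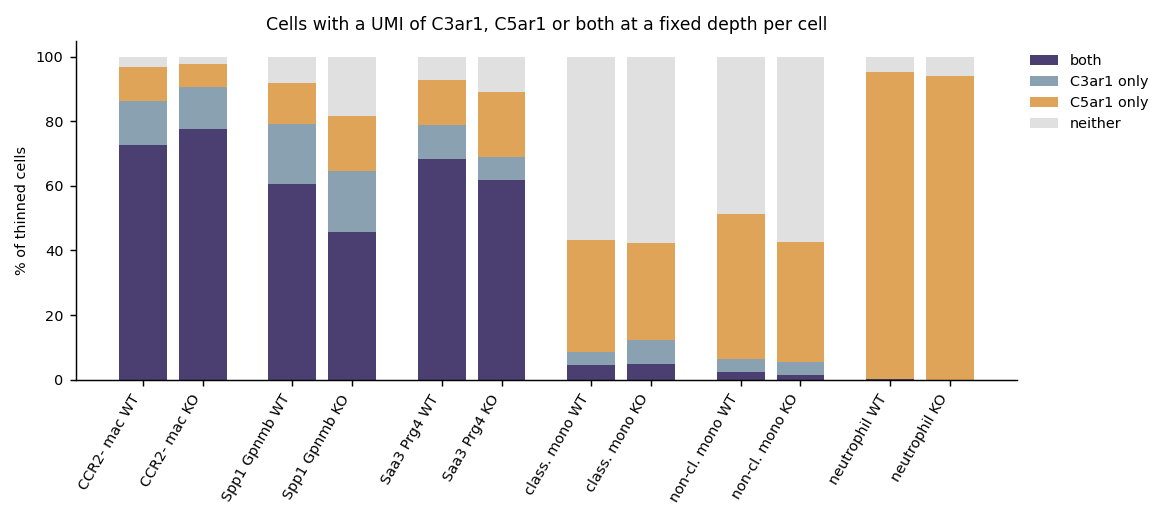
Percentage of cells thinned to 4200 UMIs with a UMI of both C3ar1 and C5ar1, of either alone or of neither, stacked to 100% for each class and library. Both receptors are seen together in 72.6% of WT and 77.6% of KO CCR2- macrophage-like cells, and neutrophil-like cells hold C5ar1 alone.

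Over the 14 classes with at least 20 cells in each library, giving 28 points of class and library, each gene was compared with the other 13838 genes by Pearson's r of log2(CPM + 10). The points share libraries, and r is given as a description. Besides the other members, the genes most like C1qa were Pf4 (r = 0.98), Tmem37 (0.97) and Ccl7 (0.97), of which Pf4 is on the CCR2- macrophage marker list. C1qb was most like Gm10134 (0.97), Tmem37 (0.96) and Pf4 (0.96), and C1qc like Pf4 (0.98), Ccl7 (0.97) and Tmem37 (0.97). C3ar1 was most like Gm10134 (0.98), Trem2 (0.97) and Siglec1 (0.96), and C3 was most like Gda (0.97), Clec4e (0.95) and Thbs1 (0.95). C4b was most like Fcna (0.96), a ficolin of the lectin pathway, Csf3 (0.96) and Ltc4s (0.95). Cfb was most like Ccl9 (0.93), Msr1 (0.91) and Dpep2 (0.91), Cfp like Ptafr (0.94), Sgpl1 (0.92) and Vamp8 (0.92), and C5ar1 like Ninj1 (0.96), Cd300ld (0.96) and Atp6v1e1 (0.95). Between members, r was 0.97 for C1qa and C3ar1 and 0.39 for C1qa and C3.

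The comparison of KO with WT asks whether loss of Lyve1 went with different complement expression in the infarcted neonatal heart. Over whole libraries, summed C1q was 6568 (WT) and 3651 CPM (KO), a ratio of 0.556. CCR2- macrophage-like cells made up 24.5% of kept cells in WT and 12.3% in KO. With the KO level of each class weighted by the share of all UMIs that the class held in WT, the KO value was 6082 CPM, a ratio of 0.926. C3ar1 and C5ar1 behaved alike, with library ratios of 0.662 and 0.698 and ratios of 1.06 and 0.997 with the same weights. The other members did not follow this pattern. C3 and C4b were higher in the KO library, with ratios of 1.35 and 1.61, and of 1.11 and 1.89 with the same weights. Cfb and Cfp had library ratios of 0.891 and 0.860, and of 0.917 and 0.937 with the same weights.

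Within CCR2- macrophage-like cells, none of 9 members passed 2-fold on log2(CPM + 10) between the libraries, where 0.204% of 10763 genes did. The median log2 difference, KO over WT, was 0.10 for the members and -0.05 for all genes. C1qa, C1qb and C1qc were lower in KO by ratios of 0.960 (0.950 to 0.971), 0.951 (0.941 to 0.961) and 0.974 (0.964 to 0.985). The summed C1q difference was -0.06 on the log2 scale, -0.04 in male cells and -0.11 in female cells, which come from different hearts of each pool. C3 was higher in KO by a ratio of 2.51 (2.11 to 2.99), which is 0.81 on the log2 scale with 10 CPM added and 1.24 with 1 CPM added. C4b was higher by 1.85 (1.70 to 2.01) and Cfb by 1.51 (1.34 to 1.70), while Cfp, C3ar1 and C5ar1 had ratios of 1.03, 1.13 and 1.08. The Ccl8 Folr2 cluster, where C3, C4b and Cfb were concentrated, held 18.6% of this class in WT and 30.1% in KO, and with each cluster weighted by its share of the UMIs of the class in WT the ratios for C4b and Cfb were 1.19 and 1.13, with 1.999 for C3. WT male and female cells alone differed as much for C4b, with 36.3 and 78.0 CPM, against 82.9 and 102 CPM in KO. For Cfb these levels were 23.7 and 36.4 CPM in WT and 38.0 and 45.4 CPM in KO. The class held 687 male and 273 female cells in WT, and 207 and 178 in KO. Within male and female cells the log2 differences were 1.01 and 0.35 for C4b, 0.51 and 0.26 for Cfb, and 0.70 and 0.87 for C3. The part of sex makeup in the ratios of the class was not tested.

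In the Saa3 Prg4 cluster 1 of 9 members, C4b, passed 2-fold (1.16% of 6357 genes did, and 0.676% in that direction), with 335 (WT) and 712 CPM (KO), a ratio of 2.13 (1.97 to 2.30). The difference was of like size in male cells (340 and 732 CPM) and in female cells (312 and 640 CPM, from 15 and 13 cells), and without the 5 cells richest in C4b in each library (249 and 550 CPM). The other 8 members were lower in KO, with ratios from 0.611 for Cfb to 0.881 for C3ar1. In female cells alone 3 of them were higher in KO: C3 (50.3 CPM in WT, 127 CPM in KO), C3ar1 (363 and 453 CPM) and Cfb (141 and 174 CPM, with a log2 interval of -0.09 to 0.65). Across all cells of the cluster the members' median log2 difference was -0.36 against -0.02 for all genes. In the Spp1 Gpnmb cluster none of 9 passed 2-fold (0.497% of genes did), and C1qa, C1qb and C1qc had ratios of 0.896, 0.810 and 0.746.

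In classical monocyte-like cells 3 of 8 members tested passed 2-fold, all lower in KO (0.338% of genes passed in that direction and 0.363% in either). These were C1qa with 319 UMIs in WT and 14 in KO, C1qb with 571 and 186, and C1qc with 319 and 43. The UMIs lay in few cells, 14 of 243 WT cells for C1qa, and in male cells C1qb was 49.6 CPM in both libraries. CCR2- macrophage markers summed to 178 (WT) and 106 CPM (KO) in this class, and their part in the difference was not tested. C3 was close in both libraries there (ratio 1.05, 0.989 to 1.11).

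In cDC2-like cells 4 of 5 members tested passed 2-fold, all higher in KO (1.21% of genes passed in that direction and 2.22% in either). Summed C1q was 3 UMIs over 35 WT cells and 657 UMIs over 32 KO cells, but 4 KO cells held all of the latter and 1 of them held 49.6%. With the floor of 3 counts per library, C1qa was at least 53.6-fold and C1qc at least 50.4-fold higher in KO, a statement about those few cells. The fourth, C3, had 11 UMIs in WT and 113 in KO. These lay in 4 WT and 12 KO cells. Without the 5 cells richest in C3 in each library, 0 UMIs were left in WT and 31 in KO.

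Among the remaining classes no member passed 2-fold, with 4 members tested in non-classical monocyte-like cells (0.629% of genes passed), 3 in neutrophil-like cells (0.939%), 1 in cDC1-like cells (2.37%) and 1 in B cell-like cells (0.653%). C3 was higher in KO non-classical monocyte-like cells by a ratio of 1.60 (1.42 to 1.79), with 153 and 169 CPM in male and 135 and 288 CPM in female cells. It was lower in KO neutrophil-like cells by a ratio of 0.613 (0.555 to 0.677). The neutrophil difference was present in male cells (450 and 228 CPM) and not in female cells (319 and 343 CPM, from 26 and 36 cells). In cDC1-like cells Cfb had 80 UMIs in WT and 0 in KO, below the 100 UMIs needed here. In all, 8 of 49 tested pairs of a member and a class passed 2-fold, against 0.993% of 85375 pairs of any gene and class, and all 8 lay in classes or clusters of 32 to 245 cells per library. Apart from C4b in the Saa3 Prg4 cluster and C3 in cDC2-like cells, they were C1q genes in classical monocyte-like and cDC2-like cells. The 5 richest cells held 85.5% of the C1q UMIs in WT classical monocyte-like cells and 100% in KO cDC2-like cells. The pairs are thus not separate observations, and their share cannot be read as an excess over other genes.

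**Figure D4:**
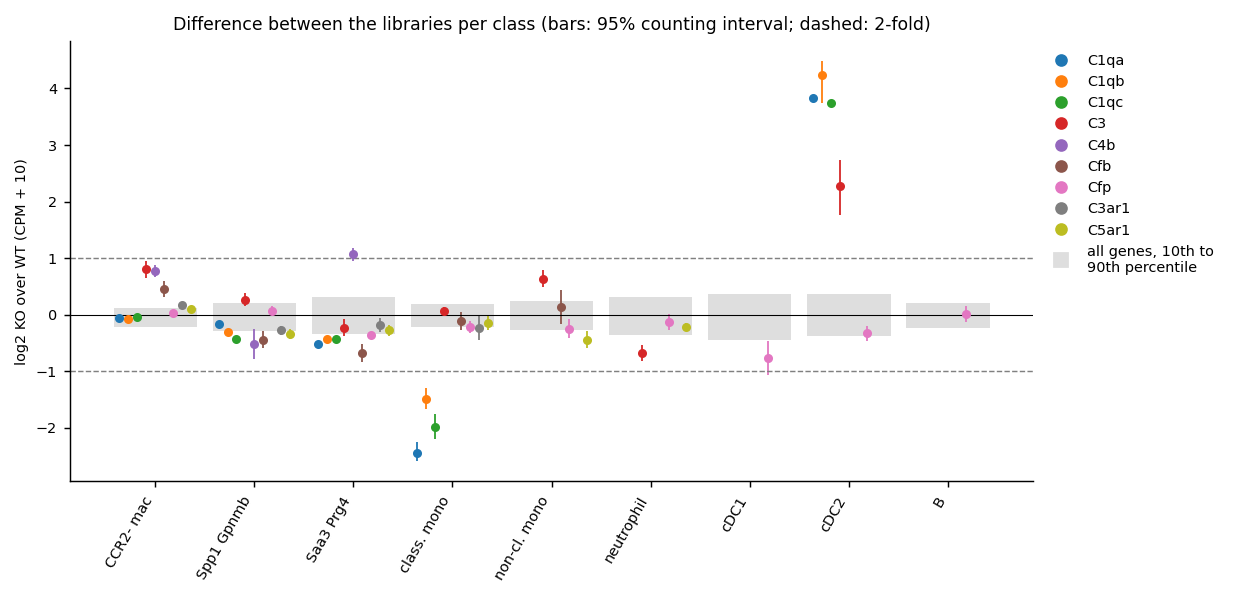
Difference between the libraries, log2 of KO over WT after adding 10 CPM, for each member with at least 100 UMIs in a class, coloured by gene, with 95% counting intervals (no bar for C1qa and C1qc in cDC2-like cells, where WT had 0 UMIs). Grey boxes span the 10th to 90th percentile of all genes tested in that class and dashed lines mark 2-fold; C1q lies near 0 in CCR2- macrophage-like cells, and C4b in the Saa3 Prg4 cluster is at 1.07.

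Of 46 further complement genes, 25 had at least 100 UMIs over both libraries. Their levels were ranked over classes, with the CCR2- macrophage-like clusters pooled. Of the 5 proteases of the classical pathway 2 did, C2 and C1ra, with C2 highest in CCR2- macrophage-like cells (29.2 CPM in WT, 39.0 CPM in KO). Of the 9 lectin-pathway genes 3 did: Fcna was highest in the Saa3 Prg4 cluster (1750 and 1455 CPM), Colec12 in CCR2- macrophage-like cells (146 and 157 CPM), and Fcnb had 18.0 and 85.6 CPM in neutrophil-like cells. Of the 7 terminal components only C6 and C9 did, and Hc, the gene of C5, had 7 UMIs in WT and 15 in KO. Factor D (Cfd), the protease that activates factor B, had 3 and 1.

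Among the regulators Cfi, the protease that inactivates C3b, had 0 UMIs in both libraries. The membrane regulator Cd55 was highest in B cell-like cells (398 and 385 CPM). All 10 receptors on the list had at least 100 UMIs. Among these pooled classes Vsig4, a macrophage receptor for C3 fragments, was highest in the Saa3 Prg4 cluster (125 and 72.9 CPM). Its level in single CCR2- macrophage-like clusters was not compared. Cr2 was highest in B cell-like cells (25.2 and 21.2 CPM) and C5ar2, the second C5a receptor, in neutrophil-like cells (43.4 CPM in both). Between the libraries none of the 19 further genes tested in CCR2- macrophage-like cells passed 2-fold. In the Spp1 Gpnmb cluster 1 of 12 passed (0.497% of all genes did): Itgax, the alpha chain of complement receptor 4, higher in KO (66.6 and 165 CPM). In neutrophil-like cells 2 of 8 passed (0.939% of all genes did), both higher in KO: Itgax (51.2 and 132 CPM) and Fcnb (levels given above). In NK cell-like cells 1 of 6 passed, Itgax, lower in KO (54.6 and 20.4 CPM), where 0.45% of genes passed. In endothelial-like cells (25 WT and 35 KO cells, median depths of 18593 and 3977 UMIs), where 6.08% of genes passed, 1 of 5 further genes tested was higher and 1 was lower past 2-fold, the higher being Serping1, the C1 inhibitor (32.2 and 143 CPM).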

How the data were processed

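Live CD45+ cells from 5 pooled hearts per genotype were sequenced as droplet 5′ libraries. The authors deposited raw UMI counts per gene and barcode, made with Cell Ranger 8.0.1 on mm10 per the labels (another Cell Ranger version is named in the reporting summary of the study), and these counts were used unchanged. Barcodes needed 500 genes, 250 UMIs and no more than 30% of UMIs from mitochondrial genes, as in the methods of the study, which left 4285 WT and 3464 KO barcodes. The automatic threshold of Scrublet (scanpy 1.11.5) marked 1 and 4 barcodes and so had not worked, and the highest-scoring 98 and 73, at 0.4% per 1000 barcodes, were left out instead. The assignment of cells to hearts made by the authors needs the reads and was not repeated. Kept cells held 63757770 and 57233748 UMIs.

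Cells were integrated and clustered in Seurat 5.3.0 (R 4.3.3; 2000 variable features, 30 dimensions, resolution 0.8, cell cycle regressed), without 62 features (the complement list, Lyve1 and sex-linked genes), and macrophages and monocytes were clustered again. A class was named from marker lists where at least 3 markers were detected and no other list led its 10 leading genes. UMIs were summed per class and library. Poisson, exact binomial and exact conditional ratio intervals (95%) cover counting error only. A pair of a gene and a class was compared with at least 100 UMIs over both libraries and 20 cells in each, and called at 2-fold on log2(CPM + 10). For shares of cells, every cell was thinned to 4200 UMIs. Cells were called male or female from Xist and Y-linked UMIs. The calls were tested on simulated counts with counting error only. Such counts hold no differences between cells or animals, so they cannot show how the calls fare where few cells hold the UMIs. The members and all lists were chosen with earlier results of these data known. Named are the 9 members, further complement genes with at least 100 UMIs (1 of them is not reported here), the 3 genes most like each member, and Lyve1. Alternatives covered the clustering, cell limits, doublets, scale, depth, sex and free RNA. Promoter sequences and gene positions were from RefSeq (GRCm38.p6) and GENCODE. Computations used Python 3.11.15, numpy 2.4.6, scipy 1.17.1 and pandas 2.3.3.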

Additional observations from a re-analysis of the deposited data

Results flagged for a closer look

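Male and female cells of a pool come from different hearts. For 30 pairs of a member and a class, each sex had enough UMIs and cells to compare KO with WT. The limits were 100 UMIs over both libraries and 20 cells in each library. They left out the Saa3 Prg4 cluster, which held 15 WT and 13 KO female cells. Of the 30 pairs, the sign was the same in 20 and opposite in 10. In 3 pairs the counting intervals lay on opposite sides of 0, and the difference between the sexes was not tested. For Cfb in classical monocyte-like cells the log2 difference was 0.51 in male and -0.55 in female cells, a gap (female minus male) of -1.06. C5ar1 in the same class had 0.30 and -0.33, a gap of -0.63. C1qa in the Spp1 Gpnmb cluster had -0.36 and 0.08, a gap of 0.43.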

How the results depend on the processing

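The difference in summed C1q between KO and WT CCR2- macrophage-like cells, -0.06 on the log2 scale, kept its direction under all 12 alternatives and stayed under 2-fold, with -0.10 from means of log-normalized values per cell, -0.0423 after thinning, -0.0403 in male cells and -0.11 in female cells. The excess of CCR2- macrophage-like over monocyte-like cells in WT, 6.41, became 6.91 at resolution 1.2, 6.82 without cell cycle regression, 5.05 under stricter cell limits (at least 1000 genes, at most 10% mitochondrial UMIs), 6.49 with 1 CPM added, 6.79 from log-normalized means, 6.54 after thinning, 7.46 in male cells, 5.82 in female cells and 6.52 after subtracting the T cell-like level. In KO, 8.38 became 8.13, 8.60, 8.75 and 6.77 under the cell cycle, cell limit, 1 CPM and log-normalized alternatives, 7.91 in male cells, 9.16 in female cells and 8.53 after subtraction. The 8 pairs past 2-fold became 13 with doublets kept, 2 after thinning, 2 in male cells, 4 in female cells and 0 on log-normalized means. After thinning and with the sexes apart, fewer UMIs left fewer pairs to compare. The counts of pairs are therefore not like for like. Log-normalized means are taken per cell on another scale, where a difference of 1 is not 2-fold on summed UMIs. With the sexes apart the pairs also changed. C4b in CCR2- macrophage-like cells passed in male cells (1.01), and C3 in non-classical monocyte-like cells passed in female cells (1.04). On log-normalized means C1qa was 0.253 in cDC2-like cells (3.84 in the main analysis) and -0.100 in classical monocyte-like cells (-2.45), and the cause was not tested. C1qb in classical monocyte-like cells, -1.48, was 0.000223 in male cells. Of the 195 further values for single genes, 114 moved by less than their counting interval and 80 by more. The remaining 1, C1qb in male classical monocyte-like cells, changed sign against a main difference past 2-fold. The cause of these moves was not tested. Leaving out the cell with most UMIs of a gene, an alternative chosen after seeing the data, left 8 pairs. That alternative says little about values held by several cells. Without the 5 richest cells, KO cDC2-like cells had 0 C1q UMIs left. In classical monocyte-like cells C1qa was then 4.56 (WT) and 0.494 CPM (KO), C1qb 17.1 and 8.89 CPM, and C1qc 10.2 and 1.15 CPM. No paired analysis was possible because each group has a single library. Few cells limited the dendritic and mast classes, and in the T cell-like, NK cell-like, ILC2-like and thymocyte-like classes no member reached 100 UMIs.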

Other observations

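C1q UMIs outside the macrophage populations were unevenly spread over cells. In KO B cell-like cells 1 of 498 cells held 60.1% of the 178 C1q UMIs, and in WT thymocyte-like cells 1 of 140 cells held 78.6% of 84. Barcodes of low depth that no marker list named (833 WT and 556 KO cells, median 1271 and 926 UMIs) had 4328 CPM of summed C1q in WT and 2478 CPM in KO.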
